A study of Drosophila melanogaster with 6 samples.

Results

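The genes described here are the translation initiation factor genes of Drosophila melanogaster, taken as all genes in the count table whose symbol begins with eIF. There were 43 of them among 17806 named genes, and they fell by symbol into eIF1 and eIF1A (2 genes), eIF2 (3), its exchange factor eIF2B (5), eIF3 (16), eIF4A with its cofactors eIF4B and eIF4H (4), eIF4G (2), the cap-binding eIF4E type (7), and eIF2D, eIF5, eIF5B and eIF6 (4). This rule used the symbol alone, although the members were chosen with earlier results of these data known. Each library came from GFP-positive intestinal progenitor cells, sorted out of the pooled, dissociated guts of 100 adult females that had spent 6 days at 29 °C, and was sequenced as bulk RNA depleted of rRNA. One genotype was labelled Patr1 and the other esgTS, with 3 libraries each. In the field esgTS is the usual name of a temperature-controlled driver active in gut progenitors, while the labels give neither the alleles nor how the Patr1 genotype alters the gene Patr-1. The series asked about transcripts whose level depends on P-bodies, cytoplasmic granules of stored mRNA and decay factors.

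Initiation brings a ribosome to the start codon of an mRNA. The factor eIF2 carries the initiator tRNA to the small ribosomal subunit, the large complex eIF3 holds that subunit and the other factors together, and the cap-binding complex of eIF4E, eIF4G and eIF4A brings in the mRNA. Some fly factors have paralogues, several of them known mainly from the male germ line.

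Library totals ran from 2035676 to 2958607 reads. The targeted transcript Patr-1 was 6.16-fold lower in Patr1, at 35.7, 32.4 and 39.1 CPM (read counts scaled to a common library size with TMM factors) against 205.9, 222.0 and 229.7 CPM in esgTS, with no overlap (edgeR adjusted p = 1.56e-09). Of 7 progenitor marker genes all had reads, among them esg at 642 CPM in Patr1 and 655 CPM in esgTS. Past the test, 3 rose (Dl, N and Sox21a, with log2 fold changes of 0.46, 0.40 and 0.42). Another 3 fell (zfh2, klu and mira, with log2 fold changes of -0.92, -0.62 and -0.39). All 9 enterocyte markers were higher in Patr1, and their summed level was 1304 to 1352 CPM in Patr1 and 408 to 452 CPM in esgTS. Summed enteroendocrine markers stood at 201.8 to 382 CPM in Patr1 and 332 to 382 CPM in esgTS. Of 7 tested genes, 2 rose (AstA 4.98-fold and CCHa1 3.68-fold) and 1 fell (Orcokinin, 1.41-fold). Visceral muscle markers summed to 200.4 to 222 CPM in Patr1 and 157.7 to 182 CPM in esgTS. Of 5 tested, 2 rose (bt 9.22-fold and sls 3.7-fold), 1 fell (how, 1.55-fold), and Mhc and Mlc2 did not pass. Hemocyte markers summed to 320.5 to 390.5 CPM in Patr1 and 291 to 328 CPM in esgTS (NimC1 had 0 reads). These close sums hid opposite changes in the 4 tested genes. Col4a1 (559 reads in Patr1 and 7 in esgTS) rose 89.8-fold, and vkg (334 and 13 reads) rose 29.7-fold. The other 2, srp and crq, fell, with log2 fold changes of -0.71 and -0.38. Ovarian germline markers reached 14.5 to 24.1 CPM in Patr1, mostly from vas, and 1.91 to 3.44 CPM in esgTS. The 1 tested ovarian gene, vas, rose (log2 fold change 4.96). Testis markers summed to 52.3 to 59.6 CPM in Patr1 and 46.4 to 58.9 CPM in esgTS (can had 0 reads). Of 3 tested, nht rose and bol fell, with log2 fold changes of 3.58 and -0.58, and topi did not pass. Among all 7927 tested genes, 25.5% rose and 23.9% fell. The part of these markers in the results below was not tested.

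The subunit genes of eIF3 lay lower in Patr1, while the cap-binding-complex paralogue eIF4G2 stood well above its esgTS level and the other factors changed by less than 1.5-fold where they passed the test, apart from the rare eIF4E5. Of the 43 genes, 35 had enough reads to be tested. With the quasi-likelihood test of edgeR and an adjusted p of 0.05, 6 rose (17.1% of those tested) and 10 fell (28.6%), whereas among all 7927 tested genes 25.5% rose, 23.9% fell and 49.4% did either. The groups did not overlap for 21 of the 35 genes (60.0%), against 57.2% of all tested genes. The changes were small: the median absolute log2 fold change of the 16 called factors was 0.38, against 0.65 over all called genes. These medians were not matched for read number, which limits how small a change can pass the test. Of the called factors, eIF4G2 and eIF4E5 rose by at least 1.5-fold, and the 10 that fell all did so by less than 1.5-fold. Over all tested genes, 13.8% rose and 13.8% fell by at least that much. In the authors' deposited table, 3 of the 35 genes were higher and 9 lower at an adjusted p of 0.05, against 17.3% and 16.4% of its genes. In these bulk samples, fewer cells of a type and less RNA per cell cannot be told apart.

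**Figure D1:**
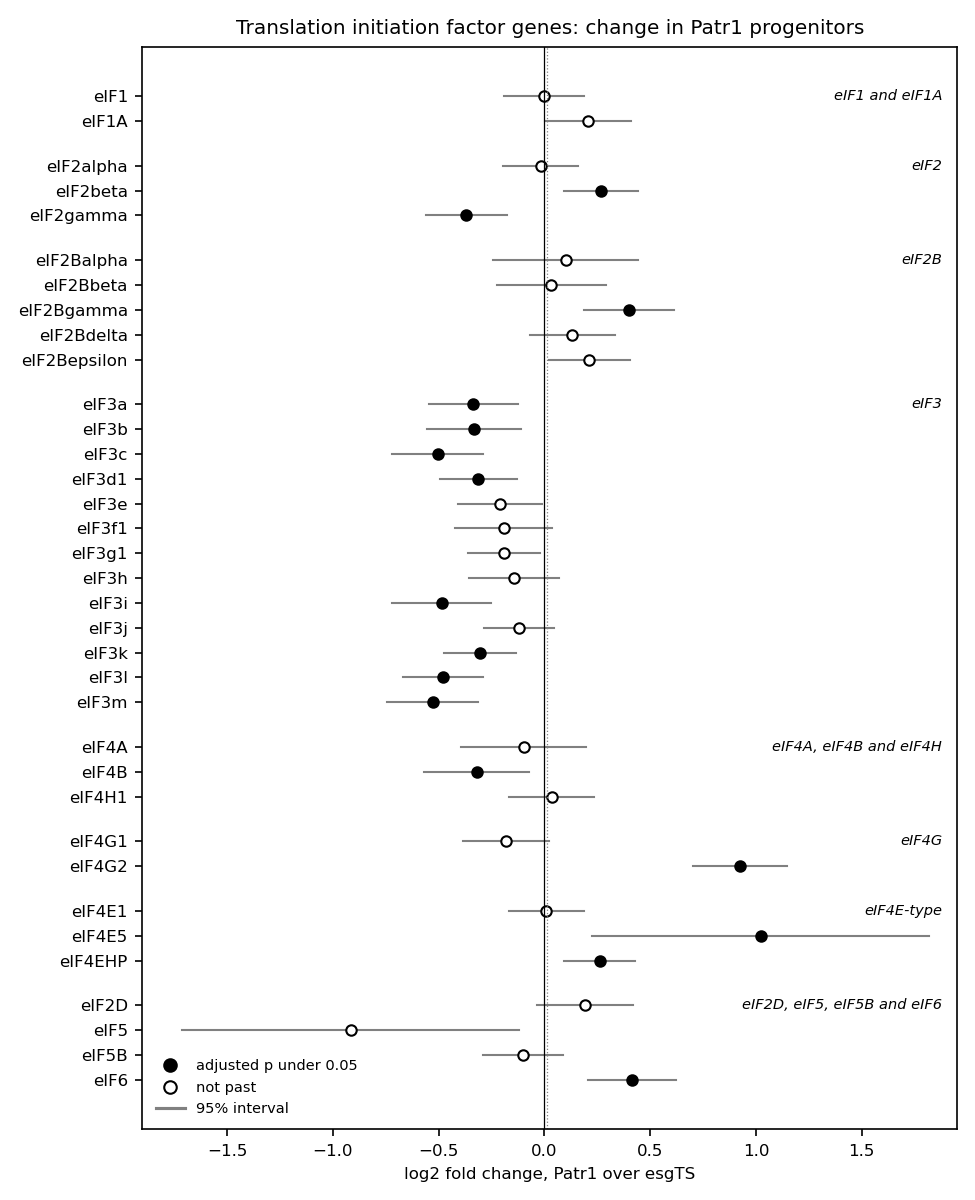
Log2 fold change of Patr1 over esgTS (x axis) for the 35 tested initiation factor genes, grouped by complex, with the 95% interval of each as a grey line. Filled points passed an adjusted p of 0.05, and the dotted line is the median of all tested genes. All 13 eIF3 points lie left of 0, from -0.53 to -0.12, and eIF4G2 stands at 0.92.

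The eIF3 complex, the largest of the initiation factors, had 13 subunit genes with reads. Of these, 8 fell (61.5%, against 23.9% of all tested genes) and 5 did not pass the test, with estimates below 0 for all 13. For 10 of them (76.9%) every Patr1 library was below every esgTS library, against 27.8% of all tested genes. The median log2 fold change was -0.31, against 0.01 over all tested genes. Summed over the subunits, eIF3 transcripts made up 3613, 3206 and 3775 CPM in Patr1 libraries and 4592, 4152 and 4708 CPM in esgTS libraries. Every Patr1 library lay below every esgTS library, and the Patr1 mean was 0.79 of the esgTS mean. Within each genotype, replicate 2 was the lowest. The summed enterocyte markers given above were higher in all Patr1 libraries, where eIF3 was lower. The number of subunits that fell was 6 to 9 when single libraries were left out and 8 with DESeq2, with every estimate below 0 in these fits.

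Among the eIF3 subunits with a PCI domain, which form the core of the complex, 5 of 6 fell, against 23.9% of all tested genes. The transcript of eIF3m had 193.4, 163.1 and 197.0 CPM in Patr1 and 270.5, 237.5 and 288 CPM in esgTS. It was the subunit with the largest fall, and its groups were well apart (1.44-fold lower, log2 -0.53 ± 0.10 SE, edgeR adjusted p = 8.53e-04). For eIF3c the levels were 546, 460.4 and 546 CPM in Patr1 and 762, 666 and 773 CPM in esgTS. The lowest esgTS library of eIF3c still lay well above the highest Patr1 library (log2 -0.50 ± 0.10 SE, edgeR adjusted p = 0.00112). For eIF3l, 252.7, 252.7 and 284 CPM in Patr1 stood against 356, 347 and 398 CPM in esgTS, again without overlap (log2 -0.48 ± 0.09 SE, edgeR adjusted p = 6.68e-04). The largest subunit, eIF3a, stood at 587, 506 and 614 CPM in Patr1, against 743, 665 and 747 CPM in esgTS. These eIF3a groups did not overlap (1.26-fold lower, edgeR adjusted p = 0.0121), although without esgTS replicate 3 the adjusted p was 0.0501. The small subunit eIF3k had 124.6, 128.0 and 134.1 CPM in Patr1 and 158.4, 152.2 and 167.5 CPM in esgTS, a narrow spread in both genotypes (1.23-fold lower, edgeR adjusted p = 0.00644). The remaining PCI gene, eIF3e, had 278, 236.7 and 247 CPM in Patr1 and 289, 273 and 319 CPM in esgTS. The eIF3e groups overlapped through Patr1 replicate 1, the highest Patr1 library (log2 -0.21, 95% interval -0.41 to -0.01, edgeR adjusted p = 0.0727, and 0.0246 without Patr1 replicate 1).

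The subunits outside the PCI core were mixed. Of the MPN-domain subunits, eIF3f1 had 174.8, 142.3 and 181.6 CPM in Patr1 and 199.0, 168.1 and 200.7 CPM in esgTS. The other, eIF3h, had 245.6, 220.0 and 269.1 CPM in Patr1 and 278.7, 241.8 and 290.4 CPM in esgTS. Both missed the threshold (edgeR adjusted p = 0.152 for eIF3f1 and 0.244 for eIF3h). Their groups overlapped, and the 95% intervals of their log2 fold changes ran from -0.42 to 0.04 and from -0.36 to 0.07. The WD-repeat subunit eIF3i fell, at 129.6, 129.1 and 158.8 CPM in Patr1 against 214.8, 170.4 and 199.2 CPM in esgTS (1.40-fold lower, edgeR adjusted p = 0.00265). Its partner eIF3b, which anchors eIF3i and eIF3g, stood at 503, 432 and 555 CPM in Patr1, against 646, 576 and 651 CPM in esgTS. Although the eIF3b groups did not overlap (edgeR adjusted p = 0.0175), Patr1 replicate 3 came close to esgTS replicate 2, and the adjusted p was 0.0708, 0.0599 and 0.0637 without Patr1 replicate 2, esgTS replicate 1 and esgTS replicate 3. The gene eIF3d1, whose human counterpart can bind the mRNA cap, had 276, 258 and 306 CPM in Patr1 and 361, 337 and 344 CPM in esgTS, with no overlap (1.24-fold lower, edgeR adjusted p = 0.00914). The RNA-binding subunit eIF3g1 had 156.7, 140.6 and 152.2 CPM in Patr1 and 167.0, 165.7 and 180.1 CPM in esgTS. For the loosely bound eIF3j the levels were 145.2, 137.2 and 131.9 CPM in Patr1 and 147.1, 153.2 and 150.3 CPM in esgTS. Neither of these passed (edgeR adjusted p = 0.0607 and 0.203), although their groups did not overlap.

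**Figure D2:**
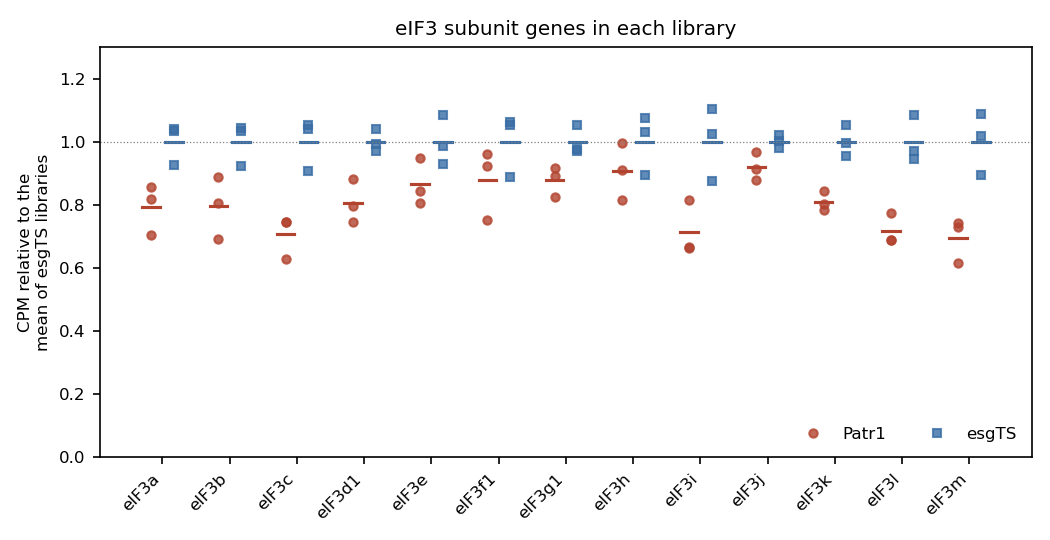
CPM of each eIF3 subunit gene with reads, divided by the mean of its 3 esgTS libraries (y axis), in Patr1 (circles) and esgTS (squares) libraries, with the group means as short lines. Patr1 values run from 0.614 for eIF3m in replicate 2 to 0.996 for eIF3h in replicate 3, and the groups overlap for eIF3e, eIF3f1 and eIF3h.

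Beside the fall of the eIF3 sum, 5 of the 13 subunits took a share of it that did not overlap between the groups. No share over all genes is at hand to set beside this count. Per kilobase of gene length (RPKM), the 13 levels spread with a coefficient of variation of 15.4% to 17.4% across subunits in Patr1 libraries and 16.9% to 18.4% in esgTS libraries. The highest was eIF3b and the lowest eIF3j in all 6 libraries. As a share of the summed eIF3 RPKM, eIF3c took 8.67%, 8.12% and 8.31% in Patr1 and 9.67%, 9.29% and 9.52% in esgTS. The shares of eIF3m (6.23% ± 0.21 in Patr1 against 7.17% ± 0.25 in esgTS) and eIF3l (7.72% ± 0.41 in Patr1 against 8.60% ± 0.37 in esgTS) were likewise lower in every Patr1 library. Those of eIF3h (8.79% ± 0.27 in Patr1 against 7.76% ± 0.24 in esgTS) and eIF3g1 (7.85% ± 0.31 in Patr1 against 7.17% ± 0.31 in esgTS) were higher in every Patr1 library (SD, n = 3 each). For eIF3g1 the groups nearly met, at 7.49% in Patr1 replicate 3 and 7.47% in esgTS replicate 2. These shares sum to a fixed total, so that one falls as another rises, and they were not tested. The paralogues eIF3d2, eIF3f2 and eIF3g2 had 0 reads in all 6 libraries. A count of 0 allows up to 3 reads, which was 1.02 to 1.51 CPM in the Patr1 libraries and 0.99 to 1.14 CPM in the esgTS libraries.

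The scaffold eIF4G, which joins the cap-binding protein to eIF4A and eIF3, has a pair of paralogues whose ratio differed between the genotypes. The transcript of eIF4G2, known in flies for its role in male meiosis, had 738, 753 and 852 CPM in Patr1 and 366, 461 and 408 CPM in esgTS. All Patr1 libraries were above all esgTS libraries, and the level was 1.90 times as high in Patr1 (log2 difference 0.92, SE 0.10, edgeR adjusted p = 1.36e-05). The general scaffold eIF4G1 had levels of 1049, 945 and 1116 CPM in Patr1 against 1149.9, 1163 and 1219 CPM in esgTS. Its groups did not overlap either, but it lay on the other side of its esgTS level by a small margin and missed the threshold (log2 -0.18, 95% interval -0.39 to 0.02, edgeR adjusted p = 0.125, and 0.0452 without Patr1 replicate 3). Per length, eIF4G2 stood at 0.51, 0.58 and 0.55 of the eIF4G1 level in Patr1 libraries and at 0.23, 0.29 and 0.24 in esgTS libraries. This ratio of RPKM values was 2.16-fold higher in Patr1, with no overlap (exact permutation test, two-sided p = 0.1, the smallest that 3 against 3 libraries can give). Since the groups of both genes were already apart in opposite directions, the ratio had to separate, and its p adds no support. The gene CG33111 covers 8.56% of the exon bases of eIF4G2, on the same strand.

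Of the 7 cap-binding genes, eIF4E1 and eIF4EHP had nearly all the reads. Per length, eIF4EHP was far lower, at 39.2 RPKM in Patr1 and 32.7 RPKM in esgTS. The values of eIF4E1 were 148 RPKM in Patr1 and 147 RPKM in esgTS. The main cap-binding factor gene eIF4E1 had 321, 312 and 359 CPM in Patr1 and 322, 324 and 339.9 CPM in esgTS. These overlapped, with means of 330.7 CPM in Patr1 and 328.7 CPM in esgTS and a 95% interval of the log2 fold change of -0.17 to 0.19 (edgeR adjusted p = 0.938). The repressor gene eIF4EHP, whose product binds the cap but not eIF4G, rose slightly, with 240.6, 253 and 260.3 CPM in Patr1 and 199.3, 217.7 and 212.9 CPM in esgTS. Its groups did not overlap (log2 0.26 ± 0.08 SE, edgeR adjusted p = 0.0141), but the adjusted p was 0.0776 without esgTS replicate 1 and 0.0578 with DESeq2. Per length, eIF4EHP was at 0.26, 0.28 and 0.25 of the eIF4E1 level in Patr1 and 0.22, 0.23 and 0.22 in esgTS (exact permutation test, two-sided p = 0.1, the smallest possible). Of the reads of all 7 cap-binding genes, eIF4E1 took 55.9% ± 1.41 in Patr1 and 60.6% ± 1.03 in esgTS, and eIF4EHP 42.5% ± 1.35 in Patr1 and 38.7% ± 1.06 in esgTS (SD, n = 3 each).

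The other cap-binding paralogues were rare. The paralogue eIF4E5 had 18, 21 and 14 reads in Patr1 and 16, 9 and 6 reads in esgTS, or 9.04, 7.15 and 6.16 CPM in Patr1 against 5.50, 2.98 and 2.29 CPM in esgTS. On the CPM scale its groups did not overlap, and it was 2.03-fold higher in Patr1 with a wide 95% interval of the log2 fold change of 0.23 to 1.82 (edgeR adjusted p = 0.0348). That call was lost without Patr1 replicate 1, Patr1 replicate 2, esgTS replicate 2 or esgTS replicate 3 (adjusted p = 0.0944, 0.0838, 0.120 and 0.120) and with DESeq2 (0.142). Per length, its ratio to eIF4E1 was 0.062, 0.050 and 0.038 in Patr1 and 0.037, 0.020 and 0.015 in esgTS, or 2.19-fold higher in Patr1 with no overlap, on these few reads (exact permutation test, two-sided p = 0.1, the smallest possible). The paralogue eIF4E7 had 1, 3 and 4 reads in Patr1 and 0 in every esgTS library, and was too rare to be tested. A summed esgTS count of 0 allows up to 3 reads. Against that limit, the 8 Patr1 reads were at least 3.17-fold higher after scaling for library size, leaving out the counting error of the 8 reads themselves. There were 4 reads of eIF4E6 in Patr1 and 1 in esgTS (ratio 4.75, exact 95% counting interval 0.47 to 234), which is not a detectable difference at this depth. Only 2 reads of eIF4E3, a factor of spermatogenesis, were found in each genotype, and none of eIF4E4. The limit for a count of 0 and the interval of eIF4E6 cover counting error only. Among the testis markers, nht rose in Patr1 and bol fell, and the ovarian marker vas rose.

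**Figure D3:**
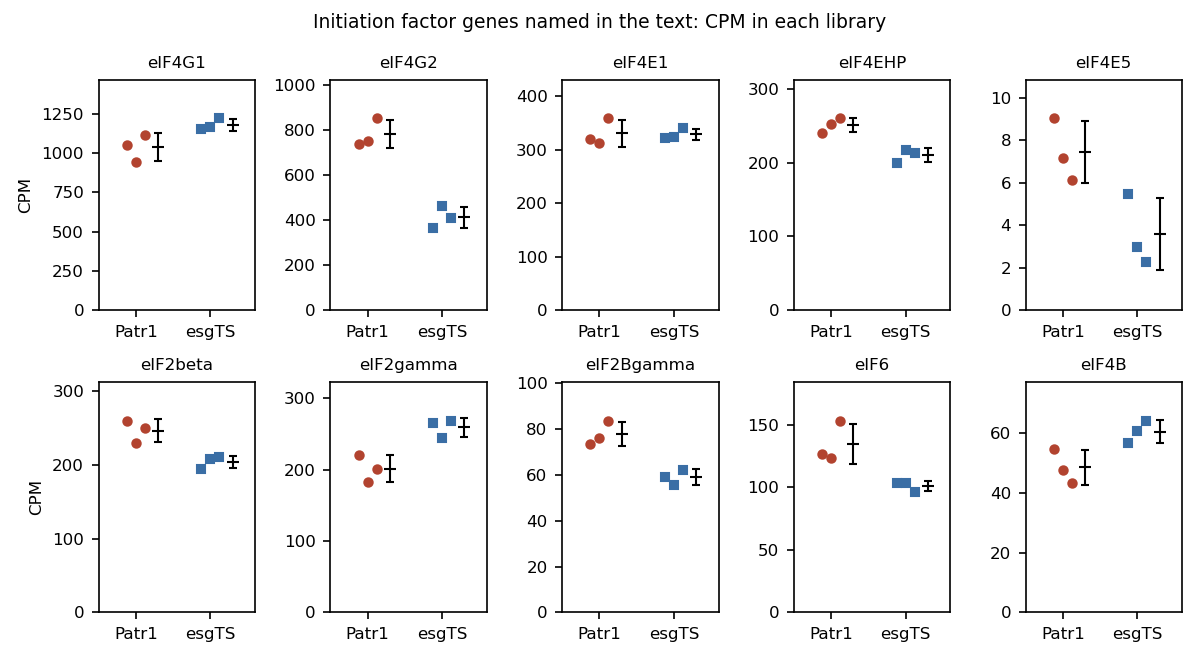
CPM (y axis, each panel from 0 on its own scale) of 10 initiation factor genes in each Patr1 (circles) and esgTS (squares) library, with mean ± SD beside the points. The groups are apart for eIF4G2 and eIF6, and overlap for eIF4E1.

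The helicase eIF4A, which unwinds the leader of the mRNA, was the most abundant factor per length in both genotypes. It had 880, 591 and 754 CPM in Patr1 and 851, 687 and 840.1 CPM in esgTS. The groups overlapped, and replicate 2 was the lowest in each genotype (log2 -0.10, 95% interval -0.39 to 0.20, edgeR adjusted p = 0.576). Its cofactor gene eIF4B had 54.8, 47.7 and 43.1 CPM in Patr1 libraries and 56.7, 60.5 and 64.1 CPM in esgTS. The highest Patr1 library was just under the lowest esgTS library (log2 -0.32 ± 0.11 SE, edgeR adjusted p = 0.0331). The eIF4B call was lost without Patr1 replicate 2 or 3 or esgTS replicate 2 or 3 (adjusted p = 0.103, 0.109, 0.0707 and 0.103), with DESeq2 (0.176) and with upper-quartile scaling (0.0567). The related cofactor eIF4H1 had 700.7, 586.4 and 681.6 CPM in Patr1 and 613.8, 634.5 and 673.4 CPM in esgTS. These overlapped (edgeR adjusted p = 0.783), and its paralogue eIF4H2 had 0 reads.

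The 3 subunits of eIF2 did not move together. The gene eIF2beta, whose product meets eIF5 and eIF2B, had 259.7, 228.8 and 249.8 CPM in Patr1 and 194.5, 207.8 and 209.8 CPM in esgTS. All Patr1 libraries were above the esgTS libraries (log2 0.27 ± 0.08 SE, edgeR adjusted p = 0.0149), though not past the threshold without esgTS replicate 1 (0.0757) or with DESeq2 (0.0570). The GTP- and tRNA-binding subunit eIF2gamma fell, with 220.0, 182.5 and 200.5 CPM in Patr1 and 265.0, 243.8 and 268.6 CPM in esgTS. No library overlapped (1.29-fold lower, log2 -0.37 ± 0.09 SE, edgeR adjusted p = 0.00415). Of its exon bases 16.0% lie in Su(var)3-9, with which it shares a locus and whose own level was 22.5 ± 2.34 CPM in Patr1 and 30.2 ± 3.44 CPM in esgTS (edgeR adjusted p = 0.0459). The regulatory subunit eIF2alpha, the target of stress kinases, had 188.9, 167.9 and 178.5 CPM in Patr1 and 191.4, 170.7 and 178.9 CPM in esgTS, which overlapped almost completely (log2 -0.018, 95% interval -0.19 to 0.16, edgeR adjusted p = 0.873). Per length, the ratio of eIF2beta to eIF2gamma was 2.31, 2.45 and 2.43 in Patr1 and 1.43, 1.66 and 1.53 in esgTS, with no overlap (exact permutation test, two-sided p = 0.1, the smallest possible). The 2 genes were already apart in opposite directions, so this outcome was fixed in advance and adds no support.

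The exchange factor eIF2B, which reloads eIF2 with GTP, was low in level. All 5 of its estimates were above 0, as were those of 4013 of all 7927 tested genes. Its summed transcripts were at 382, 389.6 and 420.4 CPM in Patr1 and 352, 343 and 358 CPM in esgTS, so that the groups did not overlap. Only eIF2Bgamma passed, with 73.3, 75.9 and 83.6 CPM in Patr1 and 59.1, 55.6 and 62.2 CPM in esgTS. Its groups were apart (1.32-fold higher, edgeR adjusted p = 0.00495, and 0.0531 with DESeq2). The catalytic subunit gene eIF2Bepsilon had 105.0, 91.6 and 96.7 CPM in Patr1 and 81.4, 85.3 and 85.5 CPM in esgTS, which did not overlap (edgeR adjusted p = 0.0599, and 0.0376 with upper-quartile scaling). For eIF2Balpha there were 31.1, 40.5 and 29.0 CPM in Patr1 and 28.5, 33.7 and 32.8 CPM in esgTS, and for eIF2Bbeta 58.8, 61.3 and 69.9 CPM in Patr1 and 66.0, 52.9 and 67.5 CPM in esgTS. For eIF2Bdelta there were 113.5, 120.2 and 141.2 CPM in Patr1 and 116.5, 115.8 and 109.9 CPM in esgTS. The groups of these 3 genes overlapped, and the estimates of eIF2Balpha, eIF2Bbeta and eIF2Bdelta were log2 0.10, 0.03 and 0.13, with edgeR adjusted p-values of 0.625, 0.846 and 0.256. With single libraries left out, the estimates reached -0.072 for eIF2Balpha and -0.080 for eIF2Bbeta. Per length, the median eIF3 subunit was 3.14 ± 0.21 times the median eIF2B subunit in Patr1 libraries and 4.77 ± 0.10 times in esgTS libraries (SD, n = 3 each). The ratio of eIF2Bgamma to eIF2Bepsilon, also per length, was 1.26 in Patr1 and 1.11 in esgTS on average. Its groups overlapped (exact permutation test, two-sided p = 0.3).

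Among eIF1, eIF1A and the factors eIF2D, eIF5, eIF5B and eIF6, which act around start-site selection and subunit joining, eIF6 was the one that passed the test. The small ribosome-bound factor eIF1 had 157.7, 141.3 and 128.8 CPM in Patr1 libraries and 144.0, 138.3 and 145.8 CPM in esgTS, with means of 142.6 CPM in Patr1 and 142.7 CPM in esgTS (edgeR adjusted p = 0.987). Its partner in scanning, eIF1A, averaged 377 ± 36.8 CPM in Patr1 and 326 ± 24.1 CPM in esgTS, with overlapping groups (95% interval of the log2 fold change 0.0024 to 0.41, edgeR adjusted p = 0.0868, and 0.0417 without Patr1 replicate 2). The gene eIF6, whose product keeps the large subunit from joining too early, had 127.1, 123.6 and 153.5 CPM in Patr1 and 103.4, 103.2 and 96.5 CPM in esgTS. Every Patr1 library was higher, with replicate 3 highest (1.33-fold higher, edgeR adjusted p = 0.00366). The joining GTPase eIF5B had 286.3, 301.7 and 340.8 CPM in Patr1 and 328.9, 347.4 and 320.1 CPM in esgTS, with overlap (edgeR adjusted p = 0.357). The levels of eIF2D, which can deliver tRNA outside the usual path, were 77.4, 84.8 and 101.1 CPM in Patr1 and 78.0, 74.8 and 78.2 CPM in esgTS, also with overlap (95% interval of the log2 fold change -0.04 to 0.42, past the test at an edgeR adjusted p of 0.0471 only without Patr1 replicate 1).

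The gene eIF5, whose product triggers GTP hydrolysis by eIF2, had very few reads for a factor of this kind, 9, 10 and 4 in Patr1 and 20, 16 and 16 in esgTS. Its level was 4.52, 3.41 and 1.76 CPM in Patr1 and 6.87, 5.29 and 6.10 CPM in esgTS, with no overlap and a wide interval (log2 -0.92, 95% interval -1.71 to -0.12, edgeR adjusted p = 0.0551, and 0.0383 without Patr1 replicate 1). In the BDGP6 annotation 80.8% of its exon bases also lie in CG46312, a gene on the same strand that had 0 reads in all 6 libraries. Of the 43 genes, eIF5 was the only one with over 20% of its exon bases in another gene. Next came eIF3h with 16.8%, none of it on the same strand, and eIF2gamma with 16.0%, all on the same strand, and 25 genes had none. The sources used here do not say how reads in shared bases were counted, and the part of the overlap in the low count was not tested.

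**Figure D4:**
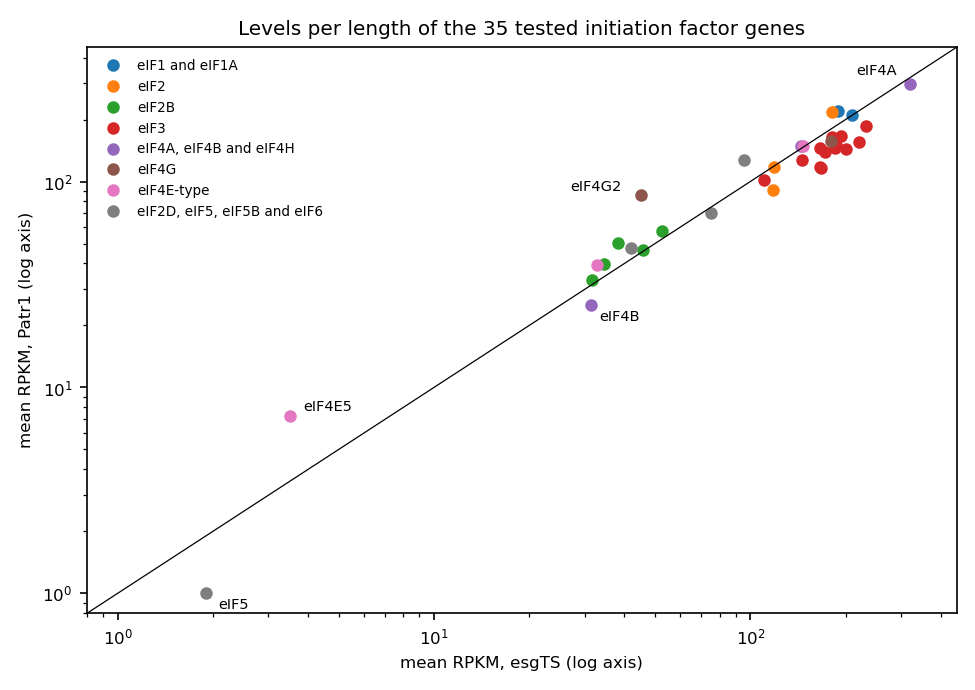
Mean RPKM in Patr1 (y axis) against mean RPKM in esgTS (x axis), both log axes, for the 35 tested initiation factor genes coloured by complex, with the line of equal levels. Points of eIF3 lie under the line, and eIF4G2 and eIF4E5 lie above it.

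Levels per length spanned a wide range. In Patr1 the highest were eIF4A at 299 RPKM, eIF1A at 219 RPKM, eIF2beta at 218 RPKM and eIF1 at 209 RPKM, and in esgTS eIF4A at 319.7 RPKM, eIF3b at 233 RPKM, eIF3c at 221 RPKM and eIF1 at 209.5 RPKM. By this measure eIF3b was 5th in Patr1 and 2nd in esgTS, and eIF3c 9th in Patr1 and 3rd in esgTS. The cofactor eIF4B, at 25.2 RPKM in Patr1 and 31.5 RPKM in esgTS, was the lowest of the tested factors apart from eIF4E5 and eIF5. The RPKM of eIF5 used its full length, of which 80.8% is shared with CG46312, so its place in this order is not firm. Across the 35 genes, Spearman's rho between log2 fold change and gene length was -0.12, and with the esgTS level it was -0.41, or -0.17 over the 22 genes outside eIF3. The same esgTS libraries enter the fold change, so its rho with the esgTS level is not a correlation of independent measures. Outside eIF3, 6 rose and 2 fell (27.3% and 9.09%, against 25.5% and 23.9% of all tested genes).

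Genes that bind, regulate or recycle the initiation machinery moved both ways. Of 23 listed, 22 were tested, 6 rose and 7 fell (27.3% and 31.8%, against 25.5% and 23.9% of all tested genes), and the median log2 fold change was 0.02, against 0.01 over all tested genes. The gene of the kinase Tor, which controls cap-dependent initiation, had 542, 494 and 516 CPM in Patr1 and 278, 286 and 289 CPM in esgTS. Its groups were far apart (1.82-fold higher, edgeR adjusted p = 2.58e-06). The eIF2alpha kinase gene PEK also rose, with 326.5, 363 and 353.6 CPM in Patr1 and 227.2, 201.5 and 198.0 CPM in esgTS (log2 0.74 ± 0.08 SE, edgeR adjusted p = 1.92e-05), and so did PPP1R15, whose product directs a phosphatase to eIF2alpha (log2 0.30, edgeR adjusted p = 0.0105, and 0.0868 with DESeq2). The nuclear cap-binding gene Cbp80 was 1.21-fold higher (edgeR adjusted p = 0.00780).

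Of the genes that fell, Paip2, an inhibitor of the poly(A)-binding protein, had 113.5, 103.5 and 128.0 CPM in Patr1 and 180.4, 181.0 and 200.3 CPM in esgTS. It was 1.63-fold lower with no overlap (edgeR adjusted p = 5.08e-05). The genes of the eIF4E-binding proteins mxt and Thor fell: mxt had 118.5, 128.7 and 117.0 CPM in Patr1 and 174.6, 173.3 and 177.4 CPM in esgTS (log2 -0.52 ± 0.08 SE, edgeR adjusted p = 1.23e-04), and Thor, the fly 4E-BP, had 131.1, 104.2 and 101.6 CPM in Patr1 and 146.1, 142.2 and 184.3 CPM in esgTS (log2 -0.49 ± 0.12 SE, edgeR adjusted p = 0.00512). The groups of both genes stayed apart, those of Thor by the smaller margin. The ribosome-recycling ATPase gene pix had 324, 293.5 and 328 CPM in Patr1 and 460.5, 397 and 469.7 CPM in esgTS (1.40-fold lower, edgeR adjusted p = 7.75e-04). The gene of another eIF4E-binding protein, cup, had 0 reads in all libraries, and 100.0% of its exon bases lie in other genes.

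The other translation factors listed were those of elongation, termination and ribosome rescue together with mitochondrial initiation and elongation factors, and 13 of the 17 tested among 19 listed did not pass. Of the 17, 3 rose and 1 fell (17.6% and 5.88%, against 25.5% and 23.9% of all tested genes), with a median log2 fold change of 0.02. The ribosome-rescue GTPase gene HBS1 had 113.5, 112.0 and 120.0 CPM in Patr1 and 79.0, 73.4 and 71.3 CPM in esgTS (log2 0.63 ± 0.08 SE, edgeR adjusted p = 6.74e-05). The mitochondrial initiation factor genes mIF3 and mIF2 rose by log2 0.78 and 0.48 (edgeR adjusted p = 9.24e-04 and 0.00497), and their groups did not overlap. The gene CG8841 covers 19.4% of the exon bases of mIF3, none of them on the same strand. The mitochondrial elongation factor gene mEFG1 was the one called fall, at 69.5 ± 3.48 CPM in Patr1 and 82.3 ± 3.99 CPM in esgTS (SD, n = 3 each, edgeR adjusted p = 0.0472). That call was lost in 9 of 12 alternative fits (adjusted p 0.0629 to 0.243), among them those without any one Patr1 replicate, esgTS replicate 1 or esgTS replicate 2.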

How the data were processed

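Tools named in the submitters' processing notes, with no order or settings, are STAR 2.7.3a, featureCounts and its package Subread 2.0.0, cutadapt 2.9, DESeq2 and SAMtools 1.10. The genome build, annotation and strand setting were not given in the sources used. Raw read counts and gene lengths were deposited per gene, per the file headers. The authors' deposited table holds normalized values (a signal equal to the count times 1 constant per library, as tested), log2 fold changes, Wald statistics (a score) and p-values, per the file headers. A row with no gene name (at most 0.00296% of reads) was left out.

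Counts were tested with edgeR 4.0.16 (R 4.3.3): TMM factors, default expression filter, quasi-likelihood test by genotype over all 6 libraries, Benjamini-Hochberg adjustment over 7927 genes, threshold 0.05. Standard errors and 95% intervals were derived from the F statistics. CPM used TMM-scaled library totals, and RPKM the deposited lengths. The alternatives were RLE and upper-quartile factors, DESeq2 1.42.0, no filter or at least 5 CPM in 3 libraries, a replicate block, and leaving out each library. Deposited lengths equalled the BDGP6 exon lengths for all 43 genes, and exon overlaps came from that annotation. Within each genotype no library duplicated another (chi-square divided by its degrees of freedom, 2.45 to 4.34). No source says whether replicates were collected apart, so p-values measure the spread between these samples.

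Every eIF gene could be named, with the value in every library for called genes and their families, and up to 4 genes per direction from each of the other lists, by smallest p. Efl1 was not matched. Members and lists were chosen with earlier results of these data known. Promoter and protein sequences were not used here.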

Additional observations from a re-analysis of the deposited data

How the results depend on the processing

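Over 35 tested factors and 12 alternatives each, 375 of 420 fits kept direction and side of the threshold, and 9 of the 16 called factors did so in all 12: eIF2gamma, eIF3c, eIF3d1, eIF3i, eIF3k, eIF3l, eIF3m, eIF4G2 and eIF6. No called factor changed sign. With DESeq2, 2 factors rose (6 with edgeR) and 3 initiation partners and regulators rose (6 with edgeR). The called fall among elongation and termination factors went to 0 with upper-quartile factors, DESeq2, no expression filter and the replicate block, and ranged from 0 to 1 when single libraries were left out. The cause of the shifts in these call counts was not tested. The share of cap-binding reads taken by eIF4E1 in Patr1 was 55.9%, and 75.4% of length-scaled reads. The second share divides the same reads by gene length, which is 2235 bases for eIF4E1 and 6418 bases for eIF4EHP. Signs turned only for uncalled factors near 0: eIF1 was at log2 0.030 with upper-quartile factors and 0.0011 with the stricter filter, and eIF2alpha at 0.014 with upper-quartile factors. With single libraries left out, the log2 fold change ran from -0.070 to 0.064 (eIF1), -0.062 to 0.031 (eIF2alpha), -0.072 to 0.20 (eIF2Balpha), -0.080 to 0.096 (eIF2Bbeta), -0.23 to 0.047 (eIF4A), -0.011 to 0.11 (eIF4H1) and -0.053 to 0.054 (eIF4E1).

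Deviations of same-numbered libraries correlated at 0.05, 0.20 and -0.04, and those of other pairs at -0.30 to 0.21. With 3 libraries per genotype, these values cannot show whether the replicate numbers pair the libraries. For eIF3a the adjusted p was 0.0121 without and 0.00282 with a replicate block, and for eIF6 0.00366 without and 0.00507 with it (edgeR). With the replicate block, 7 factors rose and 10 fell, eIF1A joining the rises (adjusted p = 0.0459). The median log2 fold change of all genes lay within 0.06 of that of the reported fit in every alternative (over 13665 genes with DESeq2 or no filter). Depth limits the paralogues: those with 0 to 8 reads over a genotype were not tested.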

Other observations

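The gene annotated in RefSeq as eIF2A stands in the count table as CG7414 and so was not among the eIF symbols; it was looked at after the other values were seen. It had 322, 275 and 336 CPM in Patr1 and 430, 373 and 428 CPM in esgTS. The groups did not overlap, and it was 1.32-fold lower in Patr1 (log2 -0.40 ± 0.10 SE, edgeR adjusted p = 0.00453, and at most 0.02505 over 12 alternatives). A second such gene, CG7483, for which RefSeq lists eIF4AIII as a synonym, had 116.0, 105.9 and 120.9 CPM in Patr1 and 105.2, 100.6 and 126.3 CPM in esgTS. These overlapped (log2 0.05 ± 0.10 SE, edgeR adjusted p = 0.730).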
